A study of Homo sapiens with 12 samples.

Results

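The response to NU7441 shared by 2 Ewing sarcoma cell lines, TC32 and SKNMC, was measured on 12 expression arrays, 6 of treated cells and 6 of vehicle-treated cells. Treated cells of each line received 40 µM NU7441 for 48 h (3 arrays of TC32 and 3 of SKNMC), and their controls received the vehicle, 0.1% DMSO, for the same 48 h (3 arrays of TC32 and 3 of SKNMC). The cells were kept in six-well plates in RPMI-1640 medium, supplemented with fetal bovine serum, and no genetic change beyond the lines' own is labelled. The mean effect of NU7441 over both lines was estimated in limma with the cell line as a covariate. A gene counted as part of the shared response when it was called, meaning a Benjamini-Hochberg adjusted p under 0.05 and a log2 fold change of at least 1 in size, and when in each line every NU7441 array lay beyond every vehicle array of that line in the same direction. By this rule 277 genes rose and 432 fell, 709 of the 12171 genes with a probe detected on at least 3 arrays. All 12 arrays of the series entered this comparison.

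NU7441 is a small-molecule inhibitor of DNA-dependent protein kinase, the enzyme made by PRKDC, which joins broken DNA ends in non-homologous end joining; kinases of the same family include mTOR and the lipid kinases of the PI3K pathway. Ewing sarcoma is a tumour of bone and soft tissue in which EWSR1 is fused to FLI1 or, less often, to a related ETS gene. Several gene programmes described here have well-known regulators. ATF4 is the transcription factor of the integrated stress response and switches on amino acid synthesis, amino acid transport and tRNA charging. SREBP factors, held in the endoplasmic reticulum by INSIG proteins, switch on cholesterol synthesis, whereas LXR receptors switch on cholesterol export. Genes of mitosis are transcribed late in the cell cycle under the DREAM and MuvB complexes.

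The libraries carried limits that touch every result. Nothing in the labels tells separate cultures from repeat samples of 1 culture within a group. The p-values therefore measure only how far these samples spread within groups and, for the mean effect over both lines, how far the lines' responses differ. The spread within groups may be technical. All 6 vehicle titles carry an added "(2)" whose meaning is not given, and whatever it marks cannot be told apart from treatment. In bulk samples such as these, fewer cells of a type and less RNA per cell cannot be told apart. Between 17944 and 20148 of 47319 probes were detected per array, and the mean intensity per array lay between 158 and 199. Within groups the log2 values correlated between arrays at 0.984 to 0.993 in vehicle-treated TC32 cells and 0.993 to 0.994 in vehicle-treated SKNMC cells. The NU7441 arrays were less alike: 0.966 to 0.989 in TC32, and in SKNMC 0.993 between replicates 2 and 3 but 0.959 and 0.958 between these and replicate 1. Replicates 2 and 3 of NU7441-treated SKNMC cells and replicate 3 of NU7441-treated TC32 cells stood apart in RNAs without a poly(A) tail, described with those RNAs, and results are also given without these 3 arrays. Only replicate 1 of NU7441-treated SKNMC cells is then left, the array least like the others of its group. Results without the 3 arrays thus rest on 1 treated SKNMC sample, with no replication there. Of 9 Ewing sarcoma markers 8 had a probe, and these 8 were detected on all arrays of each group except in NU7441-treated SKNMC cells, where 7 were. All 5 endothelial markers and, of the leukocyte markers, PTPRC and CD3E were detected on no array. The summed log2 signal of the leukocyte list was 8.28 to 9.21 with NU7441 and 7.79 to 8.08 with vehicle in TC32, and 8.15 to 8.77 with NU7441 and 7.50 to 7.66 with vehicle in SKNMC. Of its 3 measured members CD68, a lysosomal membrane protein named after its values were seen, rose on every array (1.24, or 0.80 without the 3 arrays).

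The shared response held more falling than rising genes. Across the 12171 genes tested, 303 (2.49%) were called higher and 474 (3.89%) lower in NU7441-treated cells. Of these, 277 (2.28%) were higher and 432 (3.55%) lower on every NU7441 array of both lines. Separation alone, whatever the test, was met by 1310 genes (10.8%) upward and 1513 (12.4%) downward, so most separated genes moved too little to be called. Of the 709 genes, 148 that rose and 258 that fell had a log2 difference beyond 1 within each line. The split between rising and falling genes depended on scaling. Without between-array normalization 108 genes were called higher and 935 lower, and with median scaling 111 were called higher and 884 lower; the median gene then lay at -0.18 and -0.16. Without the 3 arrays that stood apart, 195 genes were called higher and 371 lower, and the calls included 152 (54.9%) of the 277 and 303 (70.1%) of the 432. The median log2 fold change was 1.19 among the 277 and -1.33 among the 432.

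**Figure D1:**
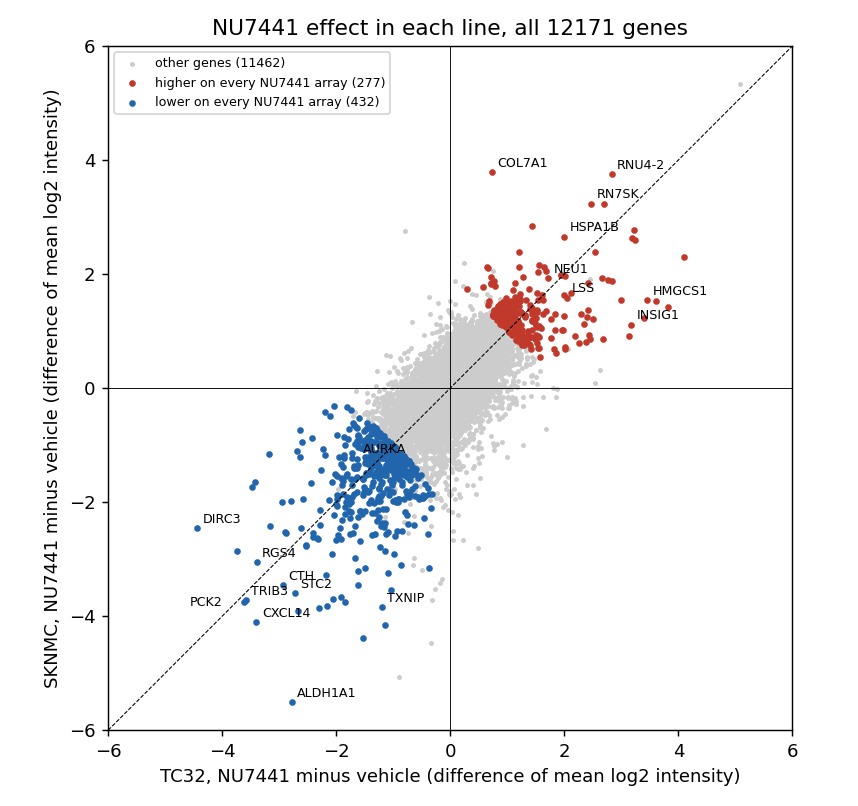
Mean log2 difference (NU7441 minus vehicle) of each of 12171 genes in TC32 (horizontal axis) and in SKNMC (vertical axis), 3 arrays per group. The 277 genes higher and 432 genes lower on every NU7441 array of both lines are coloured, and the labelled falling genes PCK2 and TRIB3 lie far from 0 in both lines.

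The 2 sets differed in make-up and in starting level. The 277 rising genes had a median normalized log2 level of 7.81 in NU7441-treated and 6.38 in vehicle-treated cells, and the 432 falling genes 5.94 and 7.47, against 6.02 and 6.04 for all genes tested. Of the falling genes 98.8% were protein-coding, and of the rising genes 75.1%, against 93.5% of all genes tested. RNAs without a poly(A) tail made up 56 of the 277 rising genes (20.2%) and none of the 432 falling genes, against 1.76% of all genes tested. Of the 709 genes, 217 had more than 1 detected probe, and in 189 of them all probes had the same sign. None had probes called in opposite directions.

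The falling genes with the largest change shared by both lines included enzymes and factors of the ATF4 programme. PCK2, the mitochondrial phosphoenolpyruvate carboxykinase, had log2 levels of 5.30, 4.83 and 5.39 in NU7441-treated TC32 cells, against 8.75, 8.72 and 8.88 in vehicle-treated TC32 cells. In SKNMC cells PCK2 stood at 4.88, 5.89 and 5.87 with NU7441 and at 9.23, 9.20 and 9.47 with vehicle. All 6 NU7441 arrays thus lay far below all 6 vehicle arrays, and the log2 fold change was -3.68 ± 0.16 (SE, limma adjusted p = 3.52e-09). TRIB3, a pseudokinase that restrains AKT and is switched on by ATF4, stood at 6.87, 7.11 and 7.27 with NU7441 and at 10.58, 10.69 and 10.75 with vehicle in TC32, and at 5.95, 7.32 and 7.25 with NU7441 and 10.45, 10.54 and 10.70 with vehicle in SKNMC. Its log2 fold change was -3.66 ± 0.19 (limma adjusted p = 1.16e-08), with no overlap between the treatments. CTH, which makes cysteine in the last step of transsulfuration, stood at 5.71, 5.43 and 5.80 with NU7441 and 8.22, 8.14 and 9.38 with vehicle in TC32, and at 5.50, 5.50 and 5.43 with NU7441 and 9.06, 8.86 and 8.87 with vehicle in SKNMC. CTH fell by 3.19 ± 0.19 on the log2 scale (limma adjusted p = 3.23e-08).

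ASNS, the asparagine synthetase, kept a high level but fell on every array. Its log2 levels were 8.19, 8.39 and 9.82 in NU7441-treated and 11.06, 11.30 and 10.91 in vehicle-treated TC32 cells, and 9.14, 9.60 and 9.55 in NU7441-treated and 11.53, 11.66 and 11.50 in vehicle-treated SKNMC cells, a change of -2.21 ± 0.22 (limma adjusted p = 4.49e-06). BCAT1, the cytosolic branched-chain aminotransferase, changed by -2.65 ± 0.18, and STC2, a secreted stress glycoprotein, by -3.17 ± 0.15. SLC6A9, the glycine transporter GLYT1, changed by -2.53. ATF4 mRNA itself, named here as the programme's regulator although the naming rule did not select it, stood at 10.41, 10.39 and 11.10 with NU7441 and 11.75, 11.90 and 11.80 with vehicle in TC32, and at 10.00, 11.25 and 11.13 with NU7441 and 11.90, 11.86 and 11.79 with vehicle in SKNMC. This was a change of -1.12 ± 0.19 (limma adjusted p = 0.000345), smaller than those of the genes above. DDIT3, a partner factor that ATF4 switches on, also named outside the rule, had a log2 fold change of -0.54 ± 0.32 and was not called (limma adjusted p = 0.195).

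**Figure D2:**
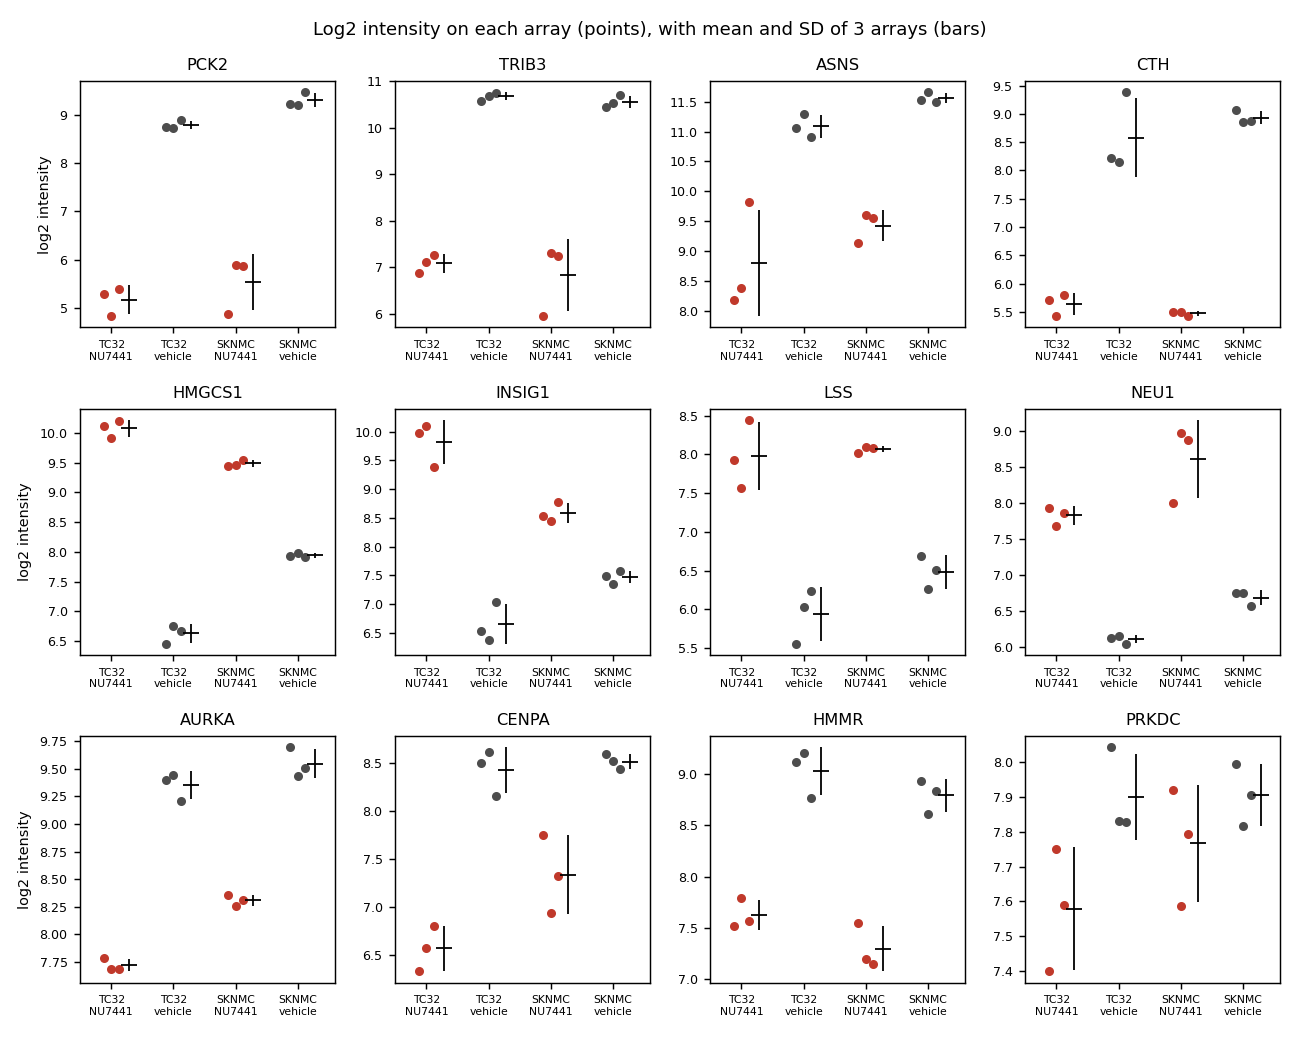
Normalized log2 level of selected genes on each of the 12 arrays, with NU7441 left of vehicle in each line; each point is 1 array, and the bars give the mean and SD of 3 arrays. PCK2, TRIB3, ASNS, CTH, AURKA, CENPA and HMMR are lower, and HMGCS1, INSIG1, LSS and NEU1 higher, on every NU7441 array of both lines, while the treatments overlap for PRKDC in SKNMC.

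There were 5 gene lists for this programme, and all 42 of their called genes, of 66 measured, fell on every array; 62 of the 66 had a log2 fold change below 0, with a median of -1.30 against -0.0011 for all genes. Of 17 ATF4 partner factors and stress effectors 13 fell (median -1.49), among them DDIT4, an inhibitor of mTORC1 signalling (-2.02), and NUPR1, a stress-induced chromatin protein. NUPR1 was detected on no NU7441 array of SKNMC and was at least 3.99-fold lower there. Of 18 cytosolic aminoacyl-tRNA synthetases, which charge tRNAs with amino acids, 10 fell (median -1.12), led by MARS1 (-1.76), GARS1 (-1.70), AARS1 (-1.70) and YARS1 (-1.64). Of 11 serine and one-carbon enzymes 8 fell (median -1.86), led by CTH, the transsulfuration enzyme CBS (-2.49), and PSPH (-2.33) and PSAT1 (-2.04) of serine synthesis. Of 8 enzymes of asparagine, proline and related amino acid metabolism 5 fell (median -1.60), the transaminase GOT1 (-1.90) and the proline enzyme PYCR1 (-1.31) besides PCK2, BCAT1 and ASNS; PYCR1 lies outside the naming rule. Of 12 amino acid transporters 6 fell (median -0.89), including SLC7A1 (-1.98), the cystine carrier SLC7A11 (-1.97) and the leucine carrier SLC7A5 (-1.81). Without the 3 arrays that stood apart, 43 of the 66 were called lower, 41 of them among the 42. Genes of endoplasmic reticulum chaperones and the unfolded protein response moved less: of 15, only XBP1 was called, at -2.15 ± 0.20, with a list median of -0.43, or -0.71 without between-array normalization.

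Because these genes fell together, their promoters are shown for the letters TGATGNAA, the core of the composite element bound by ATF4 with C/EBP factors. Promoters from 250 bases before to 50 bases after the start were taken from RefSeq (GRCh38.p14) and searched on both strands; 9676 of the 12171 genes matched. The letters were present in 1.78% of all these promoters, in 24 of 330 promoters of the falling genes (7.27%) and in 1 of 184 promoters of the rising genes (0.543%). Among the 42 falling genes of the 5 lists, 35 had a promoter and 13 of these (37.1%) held the letters. These 13 are among the 24. The lists were made for the ATF4 programme, so their share does not show that the letters go with the fall. The share among list members that did not fall was not measured. A match is a description of the letters and was not tested as a binding site. The matches of those 13 falling genes are given 5′ to 3′ on the strand that reads TGATGNAA, with the match in capitals and 11 bases on either side.
ASNS, chr7:97872458-97872487, minus strand: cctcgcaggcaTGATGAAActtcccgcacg
AARS1, chr16:70289675-70289704, plus strand: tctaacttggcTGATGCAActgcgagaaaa
ATF3, chr1:212565205-212565234, plus strand: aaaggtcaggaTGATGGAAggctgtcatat
BCAT1, chr12:24949131-24949160, minus strand: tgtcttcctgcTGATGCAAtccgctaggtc
CHAC1, chr15:40953251-40953280, minus strand: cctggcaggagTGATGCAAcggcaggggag
GOT1, chr10:99430804-99430833, plus strand: gctgccgagaaTGATGCAAccaatgcaatt
IARS1, chr9:92293692-92293721, plus strand: gcgcacggaggTGATGCAAcgcgctgaaaa
MARS1, chr12:57488053-57488082, minus strand: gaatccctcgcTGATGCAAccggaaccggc
MTHFD1L, chr6:150866346-150866375, plus strand: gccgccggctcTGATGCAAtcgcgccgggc
NARS1, chr18:57621804-57621833, minus strand: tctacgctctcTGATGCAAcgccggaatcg
SLC38A1, chr12:46266502-46266531, minus strand: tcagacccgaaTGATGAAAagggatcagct
SLC7A1, chr13:29595663-29595692, minus strand: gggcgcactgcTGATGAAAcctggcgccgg
TARS1, chr5:33440956-33440985, minus strand: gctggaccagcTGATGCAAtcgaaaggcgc
TGATGCAA was the commonest form, and ASNS, SLC38A1 and SLC7A1 carried TGATGAAA. The whole ASNS window (GRCh38.p14, chr7:97872359-97872658, minus strand) is shown because ASNS is the textbook target of this element, with the match in capitals.
ASNS promoter: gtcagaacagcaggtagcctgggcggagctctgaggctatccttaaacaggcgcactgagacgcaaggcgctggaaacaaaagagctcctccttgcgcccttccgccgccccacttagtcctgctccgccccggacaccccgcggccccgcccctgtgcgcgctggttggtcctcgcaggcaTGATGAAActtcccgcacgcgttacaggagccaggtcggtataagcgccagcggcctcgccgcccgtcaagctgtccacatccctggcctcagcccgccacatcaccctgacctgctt

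Cholesterol synthesis enzymes moved the other way. Of 17 measured, 10 were called higher and none lower, 9 of the 10 on every array, with a median log2 fold change of 1.14. HMGCS1, which makes HMG-CoA at the head of the mevalonate pathway, stood at 10.12, 9.92 and 10.19 in NU7441-treated and 6.45, 6.75 and 6.67 in vehicle-treated TC32 cells, and at 9.45, 9.46 and 9.55 in NU7441-treated and 7.93, 7.98 and 7.91 in vehicle-treated SKNMC cells. The groups did not overlap in either line, and the shared log2 fold change was 2.50 ± 0.26 (limma adjusted p = 8.40e-06). LSS, the lanosterol synthase, stood at 7.92, 7.57 and 8.44 with NU7441 and 5.55, 6.02 and 6.24 with vehicle in TC32, and at 8.02, 8.10 and 8.09 with NU7441 and 6.69, 6.26 and 6.50 with vehicle in SKNMC, a change of 1.81 ± 0.16 that was 0.98 and not called when all detected LSS probes were averaged. MSMO1 (1.69) and IDI1 (1.59), enzymes of late sterol and isoprenoid synthesis, rose as well. The list median was larger in TC32 (1.51) than in SKNMC (0.70). Without the 3 arrays that stood apart it was 1.14, with 9 enzymes called higher.

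The sensors and outlets of the pathway split. INSIG1, the SREBP anchor that is itself an SREBP target, stood at 9.98, 10.11 and 9.39 with NU7441 and 6.54, 6.38 and 7.03 with vehicle in TC32, and at 8.53, 8.44 and 8.77 with NU7441 and 7.48, 7.36 and 7.57 with vehicle in SKNMC (log2 fold change 2.14 ± 0.30, limma adjusted p = 9.20e-05). NPC2, which hands cholesterol out of lysosomes, rose by 1.37. SREBF1, the gene of SREBP1 and an LXR target, fell instead, at 5.49, 5.18 and 6.02 with NU7441 and 6.94, 6.76 and 6.93 with vehicle in TC32, and at 5.50, 4.93 and 5.14 with NU7441 and 6.45, 6.64 and 6.92 with vehicle in SKNMC (-1.39 ± 0.15, limma adjusted p = 8.40e-06). These were the 3 calls among 8 sensing and uptake genes, whose median was 0.22, or -0.0020 without between-array normalization. Of 7 LXR targets and efflux genes 2 fell (median -0.69, or 0.15 among those detected at p under 0.01 on all arrays): SMPDL3A, a phosphodiesterase (-2.47), and ABCA1, the cholesterol exporter. ABCA1 was detected on no NU7441 array, so only a bound applies, at least 5.46-fold lower with NU7441 in TC32 and at least 1.33-fold lower in SKNMC; each bound sets the mean of the vehicle arrays against the dimmest detected signals of the NU7441 arrays. Of 11 genes of fatty acid synthesis and desaturation only ME1, the cytosolic malic enzyme, was called (-1.49), and the list median was -0.01. The promoters of 8 of the 9 cholesterol enzymes were searched for TCACNCCAC, the core of a sterol regulatory element, and none held these exact letters, which occurred in 1.10% of all promoters.

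Mitotic genes fell. Of 30 measured, 13 fell, all 13 on every array, and none rose, with a median log2 fold change of -0.95. The smaller changes missed the fold minimum: 28 of the 30 had an adjusted p under 0.05. AURKA, the centrosomal mitotic kinase, stood at 7.78, 7.69 and 7.69 in NU7441-treated and 9.40, 9.45 and 9.21 in vehicle-treated TC32 cells, and at 8.36, 8.25 and 8.31 in NU7441-treated and 9.69, 9.43 and 9.51 in vehicle-treated SKNMC cells (-1.43 ± 0.10, limma adjusted p = 2.47e-07). The lowest vehicle array of AURKA lay more than 1 log2 unit above the highest NU7441 array in each line. CENPA, the histone variant that marks centromeres, stood at 6.33, 6.57 and 6.80 with NU7441 and 8.50, 8.61 and 8.16 with vehicle in TC32, and at 7.75, 6.93 and 7.32 with NU7441 and 8.58, 8.52 and 8.43 with vehicle in SKNMC (-1.52 ± 0.16, limma adjusted p = 9.89e-06). HMMR, a spindle assembly factor, changed by -1.45 ± 0.11, and CDC25C, the phosphatase that activates CDK1, by -1.39. The list median was -1.23 in TC32 and -0.70 in SKNMC, and 14 members were called lower without the 3 arrays that stood apart. Of 31 genes of DNA replication and S phase, limma called none, with a median of -0.17, or -0.50 without between-array normalization. At an unadjusted p under 0.05, 3 were higher and 13 lower. At a limma adjusted p under 0.05, 2 were higher and 8 lower, all under the fold minimum.

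The promoters of the falling mitotic genes are shown for TTTGAA, the core of the cell cycle homology region bound by MuvB complexes. The letters were present on either strand in 10.1% of all promoters, in 40 of 330 promoters of the falling genes (12.1%), in 15 of 184 of the rising genes (8.15%), and in 6 of 10 promoters of the 13 falling mitotic genes (60%). The set of 10 is small and no test was made of it. The matches of 5 of these 6 falling genes are given on the strand that reads TTTGAA, with 1 match in capitals; HMMR and TOP2A held the letters at 2 places each.
CENPA, chr2:26786027-26786054, plus strand: ggagcgagcgaTTTGAAcgcgagcggcg
CDK1, chr10:60778159-60778186, plus strand: agtataataaaTTTGAActgtgccaatg
HMMR, chr5:163460593-163460620, plus strand: atgtggggagaTTTGAAtttgaaaccgg
NDC80, chr18:2571543-2571570, minus strand: agccgttcgaaTTTGAAattctccgccg
NUF2, chr1:163321959-163321986, plus strand: gaggcggcaagTTTGAAaagtgatgacg
In CENPA the match began 18 bases before the annotated start, and its whole window (GRCh38.p14, chr2:26785806-26786105, plus strand) reads as follows.
CENPA promoter: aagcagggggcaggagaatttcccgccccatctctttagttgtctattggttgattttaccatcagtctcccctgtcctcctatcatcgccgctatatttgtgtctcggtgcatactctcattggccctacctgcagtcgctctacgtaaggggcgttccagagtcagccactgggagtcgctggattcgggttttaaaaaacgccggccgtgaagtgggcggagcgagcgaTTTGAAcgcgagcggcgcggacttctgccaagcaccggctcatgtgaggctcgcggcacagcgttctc

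**Figure D3:**
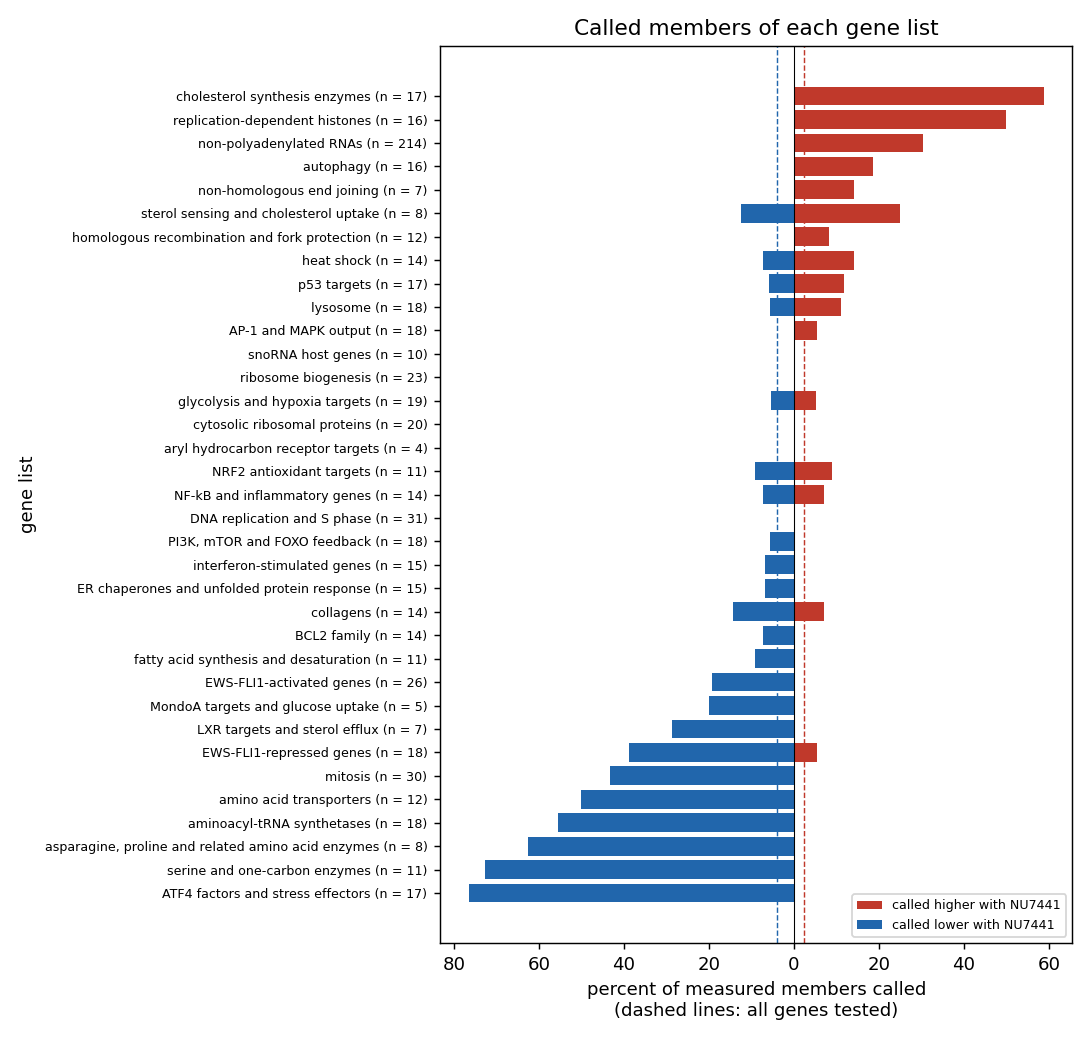
Percent of the measured members of each gene list called higher (bars to the right) or lower (bars to the left) with NU7441 over both lines. Dashed lines give the shares over all genes tested, 2.49% higher and 3.89% lower. The 5 ATF4 and amino acid lists and the mitosis list have members called lower and none called higher. In the cholesterol synthesis list 10 of 17 are called higher and none lower.

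Other falling genes with large changes in both lines were secreted, signalling and retinoid genes. CXCL14, a chemokine, stood at 7.39, 7.43 and 7.39 with NU7441 and 10.92, 11.14 and 10.35 with vehicle in TC32, and at 6.54, 4.28 and 4.39 with NU7441 and 9.15, 9.27 and 9.11 with vehicle in SKNMC (-3.75 ± 0.31, limma adjusted p = 8.62e-07). TNFSF13B, the B-cell cytokine BAFF, stood at 6.91, 6.92 and 6.94 with NU7441 and 10.65, 10.75 and 10.59 with vehicle in TC32, and at 6.30, 6.68 and 6.50 with NU7441 and 9.43, 9.30 and 9.35 with vehicle in SKNMC (-3.30 ± 0.15). RGS4, a brake on G-protein signalling, was detected on no NU7441 array of SKNMC and was at least 7.43-fold lower there; its fitted log2 fold change over both lines was -3.22. The long non-coding RNA DIRC3 changed by -3.45 ± 0.29. DHRS3, a retinaldehyde reductase, changed by -3.29, and ALDH1A1, a retinaldehyde dehydrogenase, by -4.14 ± 0.84. ALDH1A1 was uneven: it stood at 10.12, 10.14 and 8.47 with NU7441 and 12.35, 12.42 and 12.30 with vehicle in TC32, and at 10.23, 4.36 and 4.27 with NU7441 and 11.71, 11.78 and 11.90 with vehicle in SKNMC. Without the 3 arrays that stood apart its change was -1.97, still called.

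LMO3, a transcriptional co-factor gene, was similarly uneven. In TC32 it stood at 7.03, 7.25 and 7.45 with NU7441 and 9.83, 9.62 and 9.86 with vehicle. In SKNMC it stood at 7.55, 4.14 and 4.24 with NU7441 and 7.98, 7.99 and 8.20 with vehicle. Its change was -2.64 ± 0.42, or -1.81 without the 3 arrays, where the change within SKNMC was only -0.51. PRAMEF1 and AADACL4 each fell to background in 1 line: PRAMEF1 was at least 5.08-fold lower with NU7441 in SKNMC, and AADACL4 at least 6.10-fold lower in TC32. PRAMEF1 belongs to a family of near-identical copies, so its probe may read more than 1 of them. TXNIP, the glucose-sensitive arrestin controlled by MondoA, stood at 8.21, 8.51 and 7.13 with NU7441 and 9.06, 9.23 and 9.16 with vehicle in TC32, and at 6.80, 5.60 and 5.89 with NU7441 and 9.98, 9.89 and 9.92 with vehicle in SKNMC (-2.52 ± 0.41, limma adjusted p = 0.000257). TXNIP was the only call among 5 MondoA and glucose uptake genes.

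**Figure D4:**
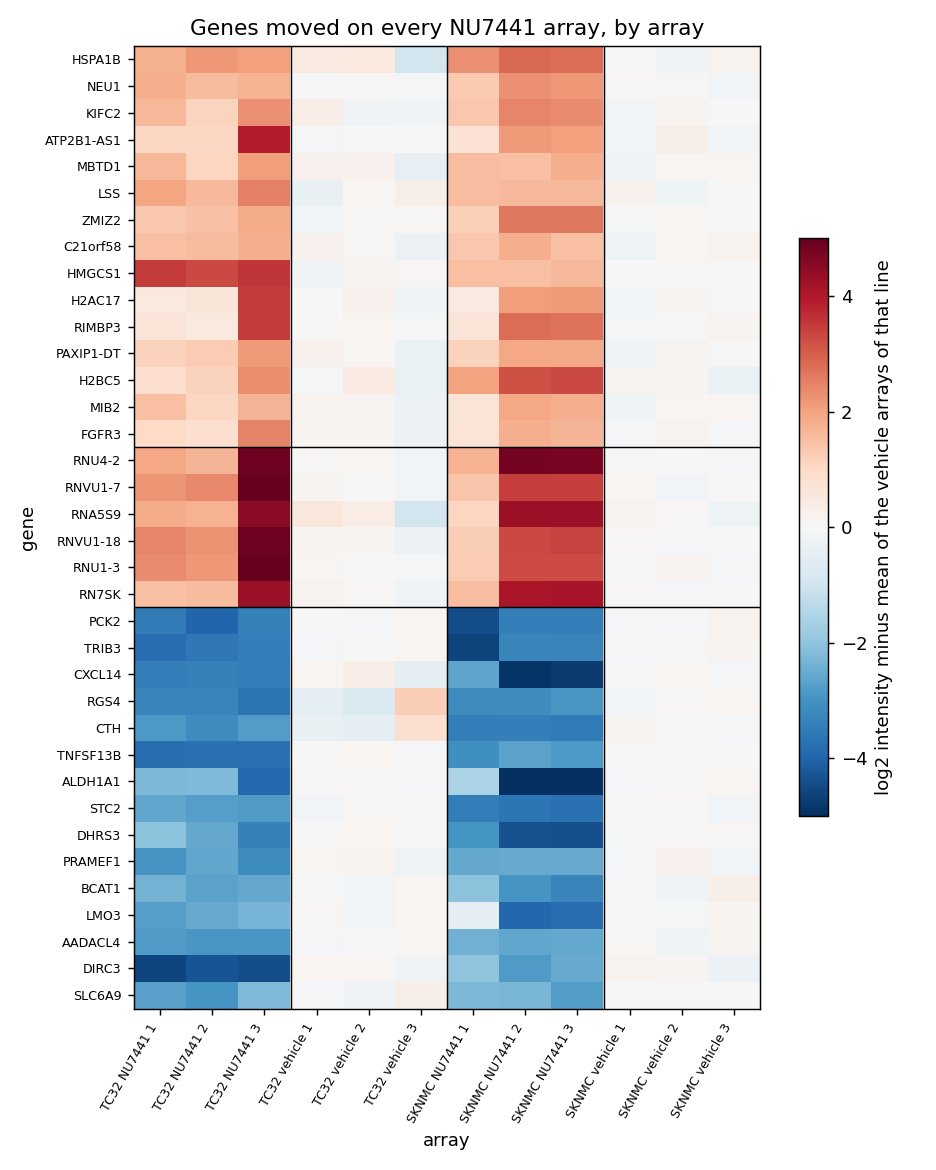
Log2 level of the 15 rising and 15 falling genes, and of 6 RNAs without a poly(A) tail, ranked by the smaller of their differences in the lines, on each of the 12 arrays, as the difference from the mean of that line's vehicle arrays (colour scale in log2 units). NU7441 arrays stand left of vehicle arrays in each line, and PCK2, TRIB3 and CXCL14 are among the genes low on all 6 NU7441 arrays.

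By the smaller of their differences in the lines, HSPA1B and lysosomal NEU1 headed the rising genes outside the RNAs without a poly(A) tail. HSPA1B, a stress-inducible chaperone, stood at 9.41, 9.77 and 9.69 in NU7441-treated and 8.05, 8.11 and 6.69 in vehicle-treated TC32 cells, and at 9.25, 9.84 and 9.75 in NU7441-treated and 6.95, 6.78 and 7.13 in vehicle-treated SKNMC cells (2.33 ± 0.22, limma adjusted p = 3.80e-06). HSPA1A rose by 1.79, but the 2 genes are near-identical copies and their probes may share signal. Among the 14 heat shock genes measured these were the 2 that rose, and CRYAB, a small heat shock protein, fell (-2.78). Without the 3 arrays CRYAB changed by -1.26, and by -0.58 within SKNMC. The list median was 0.22, or -0.01 without between-array normalization. NEU1, the lysosomal sialidase, stood at 7.94, 7.68 and 7.86 with NU7441 and 6.12, 6.16 and 6.05 with vehicle in TC32, and at 7.99, 8.97 and 8.87 with NU7441 and 6.75, 6.74 and 6.56 with vehicle in SKNMC (1.82 ± 0.15, limma adjusted p = 7.10e-07). Of 18 lysosomal genes, NEU1 and the peptidase TPP1 (1.11) rose. TPP1 was not called without replicate 1 of NU7441-treated SKNMC cells (0.97) or without between-array normalization (0.72). The protease CTSL fell (-1.78, or -0.95 and not called without the 3 arrays), and the list median was 0.32, or 0.030 without between-array normalization.

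Of 16 autophagy genes 3 rose and none fell: the initiating kinase ULK1 (1.25), the phosphoinositide reader WIPI2 (1.16) and the receptor SQSTM1 (1.06), with a list median of 0.25. The scaling changed these calls, since without between-array normalization the median was -0.09, and ULK1 (0.86), WIPI2 (0.92) and SQSTM1 (0.68) were not called. Leaving out 1 TC32 array, either NU7441 replicate 2 or 3 or vehicle replicate 1 or 3, also took SQSTM1 below the fold minimum, at 0.97 to 0.99. MBTD1, a chromatin reader, stood at 8.81, 8.25 and 9.24 with NU7441 and 7.35, 7.37 and 6.74 with vehicle in TC32, and at 8.25, 8.21 and 8.53 with NU7441 and 6.52, 6.81 and 6.79 with vehicle in SKNMC (1.62 ± 0.16, limma adjusted p = 4.89e-06). The kinesin KIFC2 (1.87), the PIAS-like co-regulator ZMIZ2 (1.86), C21orf58 (1.59) and the ubiquitin ligase MIB2 (1.43) rose on every array too. Without the 3 arrays they stood at 1.37, 1.33, 1.47 and 1.02. ZMIZ2 and MIB2 were not called without background correction (0.99 and 0.78) or in the submitters' processed values (0.98 and 0.78). MIB2 was also not called with a background offset of 50 (0.97).

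Many rising transcripts were RNAs without a poly(A) tail, and within each line these moved most on the arrays that stood apart. Of 214 such RNAs measured (small nuclear, small nucleolar, ribosomal and related RNAs), 65 were called higher and none lower, 56 on every array, with a median log2 fold change of 0.71. RNU4-2, the U4 RNA of the spliceosome, stood at 7.36, 7.16 and 10.31 with NU7441 and 5.51, 5.53 and 5.30 with vehicle in TC32, and at 7.07, 10.09 and 10.07 with NU7441 and 5.37, 5.33 and 5.28 with vehicle in SKNMC. It rose on all 6 NU7441 arrays (3.29 ± 0.55, limma adjusted p = 0.00031), and more on TC32 replicate 3 and SKNMC replicates 2 and 3; without these 3 arrays the change was 1.79. RN7SK, which holds the elongation factor P-TEFb inactive, stood at 8.66, 8.72 and 11.47 with NU7441 and 7.31, 7.19 and 6.93 with vehicle in TC32, and at 8.23, 10.77 and 10.80 with NU7441 and 6.77, 6.61 and 6.73 with vehicle in SKNMC (2.85 ± 0.48, or 1.54 without the 3 arrays). The U1 variants RNVU1-7 (2.99), RNVU1-18 (2.91) and RNU1-3 (2.92) are near-identical copies whose separate values are uncertain. The 5S ribosomal RNA RNA5S9 rose by 2.96, or 1.51 without the 3 arrays. Without those arrays 55 of the 214 were called higher, with a median of 0.54.

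The 28S ribosomal RNA probe, named after its values were seen, separated those 3 arrays most plainly. RNA28SN5 stood at 8.26, 9.33 and 12.69 with NU7441 and 5.06, 4.86 and 5.13 with vehicle in TC32, and at 4.33, 12.33 and 12.42 with NU7441 and 4.50, 4.43 and 4.17 with vehicle in SKNMC. It was called (5.20 ± 1.11, limma adjusted p = 0.0019) but is not part of the shared response, because replicate 1 of NU7441-treated SKNMC cells lay within the vehicle range. The median of the 277 rising genes over vehicle was 1.02, 0.95 and 1.59 on the TC32 arrays and 1.03, 1.39 and 1.40 on the SKNMC arrays. That of the 432 falling genes was -1.27, -1.24 and -1.35 in TC32 and -1.11, -1.61 and -1.64 in SKNMC. Within each line both sets were thus farthest from 0 on the arrays with the most 28S signal; the part of that signal in the other genes' values was not tested.

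**Figure D5:**
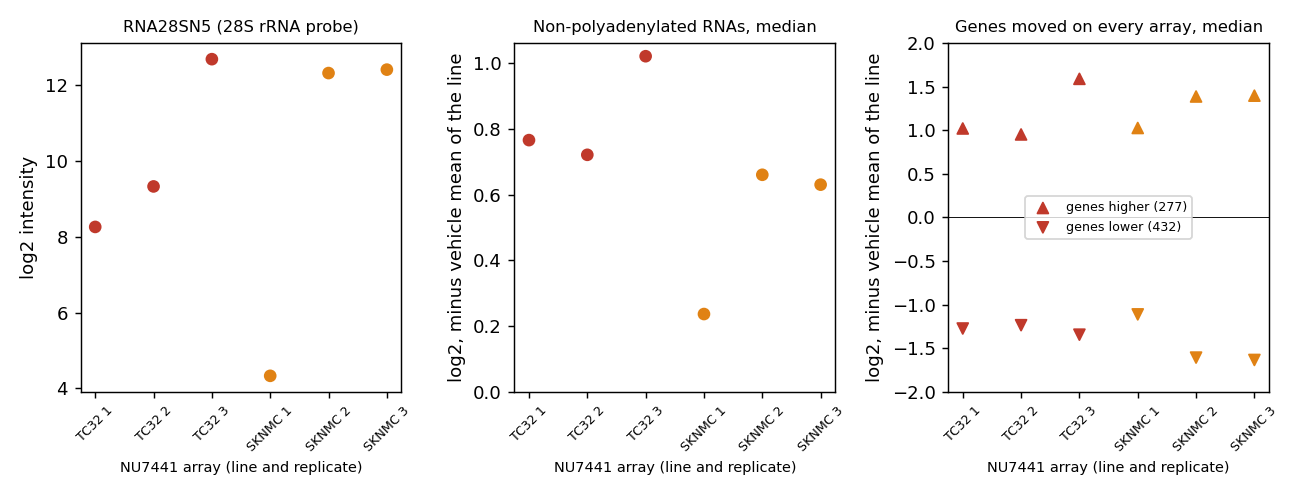
For each of the 6 NU7441 arrays (horizontal axes), the log2 level of the 28S probe RNA28SN5 (left), and the median log2 difference from the vehicle mean of the same line for the 214 RNAs without a poly(A) tail (middle) and for the 277 rising and 432 falling genes (right). Replicate 3 of TC32 and replicates 2 and 3 of SKNMC have 28S levels of 12.69, 12.33 and 12.42, and within each line they lie farthest from 0 in the other panels.

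Replication-dependent histone genes, whose mRNAs end in a stem-loop instead of a poly(A) tail, followed the same arrays. Of 16 measured, 8 were called higher, 3 of them on every array: H2BC5 (2.14), H2AC18 (1.28) and H2BC8 (1.27, or 0.92 and not called without replicate 3 of NU7441-treated TC32 cells). Without the 3 arrays that stood apart H2AC18 (0.50) and H2BC8 (0.31) were not called, only 1 of the 16 was called higher, and the median was 0.27 against 0.88 with all arrays. H2BC5 stood at 6.09, 6.38 and 7.54 with NU7441 and 5.15, 5.63 and 4.92 with vehicle in TC32, and at 8.32, 9.50 and 9.63 with NU7441 and 6.51, 6.44 and 5.99 with vehicle in SKNMC, and it changed by 1.39 without the 3 arrays. H2AC17, a replication-dependent histone gene outside the list of 16, rose on every array (1.54) but was not called without them (0.51). Other rising genes that were no longer called without them were ATP2B1-AS1 (1.81, or 0.91), RIMBP3 (1.79, or 0.60) and FGFR3 (1.41, or 0.82).

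PRKDC, which encodes the target of the drug, was not called, and each DNA repair list gave 1 call. Over all genes tested 2.49% were called higher and 3.89% lower. A single call in lists this short is therefore not read as a result about the list. PRKDC stood at 7.40, 7.75 and 7.59 in NU7441-treated and 8.04, 7.83 and 7.83 in vehicle-treated TC32 cells, and at 7.92, 7.59 and 7.79 in NU7441-treated and 7.99, 7.82 and 7.91 in vehicle-treated SKNMC cells, a log2 fold change of -0.23 ± 0.10 that was not called (limma adjusted p = 0.0886). An mRNA level does not measure the kinase's activity. Among 7 non-homologous end joining genes DCLRE1C, the Artemis nuclease, was called higher (1.06) but not on every array, and its call was lost without NU7441 replicate 3 of TC32 (0.86) or, in SKNMC, vehicle replicate 1 (0.99) or NU7441 replicate 3 (0.95); without the 3 arrays it stood at 0.51. The list median was -0.23, and 0.03 without the 3 arrays that stood apart. Among 12 homologous recombination genes only XRCC2 was called (1.16, or 0.82 without between-array normalization and 0.57 with all detected probes averaged, and then not called). Among 17 p53 targets TP53INP1 (1.32) and CDKN1A rose and GDF15 fell, with a list median of 0.08 that was -0.13 without between-array normalization. CDKN1A, the cyclin-dependent kinase inhibitor p21, stood at 9.13, 9.20 and 8.57 with NU7441 and 7.32, 7.35 and 6.65 with vehicle in TC32, and at 6.67, 6.23 and 6.28 with NU7441 and 5.89, 5.59 and 5.87 with vehicle in SKNMC (1.24 ± 0.22, limma adjusted p = 0.000546). With no between-array normalization it stood at 0.91 and with median scaling at 0.93, and was not called. GDF15 was detected on no NU7441 array and was at least 3.74-fold lower in TC32 and at least 1.21-fold lower in SKNMC. Of 18 genes of PI3K, mTOR and FOXO feedback only IRS1, the insulin receptor substrate, was called (-1.22 ± 0.18, or -0.93 and not called without the 3 arrays).

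Called genes tied to the Ewing fusion were mostly lower, among activated and repressed targets alike. EWSR1 had a log2 fold change of 0.45 ± 0.11, under the fold minimum (limma adjusted p = 0.00344). Without between-array normalization EWSR1 stood at 0.064 (limma adjusted p = 0.751). FLI1 had a log2 fold change of 0.20 (limma adjusted p = 0.215) that was -0.021 without between-array normalization. Of 26 genes that the fusion is known to activate 5 were called lower and none higher (median -0.33, or -0.70 without between-array normalization): UPP1, a uridine phosphorylase (-1.68), LIPI, a membrane lipase (-1.36), the kinase PRKCB (-1.18) and, outside the naming rule, the caveolar protein CAV1 (-1.06) fell on every array. With all detected probes averaged, UPP1 and PRKCB stood at -0.88 and -0.81 and were not called. The fifth, GSTM4 (-1.25), did not fall on every array, and stood at -0.99 without NU7441 replicate 3 of SKNMC and -0.36 without the 3 arrays that stood apart. Of 18 genes that the fusion is known to repress 7 were called lower and 1 higher (median -0.71). IGFBP5, an IGF-binding protein, changed by -2.99 (-1.46 without the 3 arrays), and CCN2, a matricellular protein, by -2.88 (-2.06 without them). COL3A1, a fibrillar collagen, changed by -2.54. TGFBI, a secreted matrix protein, changed by -2.64, but by -0.86 without the 3 arrays, and then by -0.11 within SKNMC. Its limma adjusted p was 0.0507 to 0.0525 without any 1 of the SKNMC vehicle arrays. Fibroblast and mesenchymal markers moved with this list: 5 of 11 measured were called lower. Their summed log2 signal was 8.80 to 9.04 with NU7441 and 10.32 to 10.45 with vehicle in TC32, and 9.16 to 9.71 with NU7441 and 10.85 to 11.01 with vehicle in SKNMC. In TC32 the defining markers COL1A2, DCN, LUM, PDGFRA, FAP and POSTN were detected on no array of either treatment, and in SKNMC PDGFRA was not. The part of these markers in the result was not tested.

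The remaining lists held few calls, against 2.49% higher and 3.89% lower over all genes tested. Single calls are not read as a result about a list. COL7A1, the anchoring fibril collagen, rose (2.25) among 14 collagens, of which COL3A1 and COL11A1 (-1.44, not on every array, and -0.98 and not called without the 3 arrays that stood apart) were called lower. Also higher were the stress-induced IER3 (1.31, or 0.95 and not called without between-array normalization) among 18 AP-1 and MAPK genes and the redox enzyme TXNRD1 among 11 NRF2 targets. TXNRD1 stood at 1.15; it was not called without between-array normalization (0.77), without NU7441 replicate 3 of TC32 (0.97) or without NU7441 replicate 1 of SKNMC (0.93). IFIH1, the RNA sensor MDA5, was the only call among 15 interferon-stimulated genes. It fell; it was detected on no NU7441 array of TC32 and was at least 1.73-fold lower there. The chemokine CCL2 fell (-1.09, or -0.90 and not called without those 3 arrays) among 14 NF-kB genes, and the inhibitor NFKBIA was called higher but not on every array (1.15, or 0.72 and not called without those 3 arrays); the list median was 0.32, or 0.011 without them. Limma called none of 20 cytosolic ribosomal protein genes, with a median of 0.0084. At an unadjusted p under 0.05, 4 of them were higher and none lower, and at an adjusted p under 0.05, 3 and none. It called none of 23 ribosome biogenesis genes (2 higher and 5 lower at an unadjusted p under 0.05, 2 and 4 adjusted). None of 10 snoRNA host genes was called (2 higher and 1 lower at p under 0.05, adjusted or not). The changes with an adjusted p under 0.05 in these lists missed the fold minimum. Of 6 control genes measured none was called, but 2 were lower at a limma adjusted p under 0.05. Their median log2 fold change was -0.06 and the lowest was -0.43. The controls ACTB and GAPDH had log2 fold changes of 0.25 and -0.20, with limma adjusted p of 0.318 and 0.109. Without the 3 arrays that stood apart they changed by 0.66 and -0.14.

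Although the 709 genes moved the same way in both lines, the sizes differed for some. The difference between the lines' changes was itself called (limma adjusted p under 0.05 and a log2 difference of 1 or more) for 51 of the 709, 20 that rose and 31 that fell. Of the 51, 12 were detected on no NU7441 array of at least 1 line, so their differences are set against background. When each line was tested alone, 148 genes (1.22% of those tested) were called higher in both and 248 (2.04%) lower in both. The 148 were 47.4% of the genes called higher in TC32 and 35.3% of those called higher in SKNMC, and the 248 were 52.1% and 36.2% of those called lower. Only 2 genes were called in opposite directions. HMGCS1 rose by 3.45 in TC32 and by 1.55 in SKNMC, whereas PCK2 and TRIB3 changed by more than 3 log2 units in the mean of both lines.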

How the data were processed

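Total RNA of 12 cell culture samples was labelled as biotinylated cRNA and hybridised to Illumina BeadChips. The deposited table holds non-normalized bead intensity per probe and array with a detection p-value, per the file headers. A further deposited table holds the submitters' processed values on a log2 scale; its centring and normalization are not given in the sources used here. GenomeStudio, R 3.0.2 and lumi are named in the submitters' processing notes, without their roles.

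Intensities were background-corrected with normexp on the detection p-values (offset 16), quantile-normalized and log2-transformed in limma 3.58.1 (R 4.3.3). Of 47319 probes, 21753 had a detection p under 0.05 on at least 3 arrays. GEO's platform annotation gave 1 gene symbol to 30112 probes, several to 8 and none to 17199; 30073 were updated through Entrez identifiers. The brightest detected probe stood for a gene. The model held line and treatment, with Benjamini-Hochberg adjustment over 12171 genes; the difference between lines came from a fit of 4 group means. Log2 values depend on the offset, which sets how far dim probes are compressed. The procedure was tested on simulated data. Arrays give no counts, and their number limits the precision; no 2 arrays held identical values (0 pairs).

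Members, gene lists and tests were chosen with earlier results of these data known. Genes were named by rule: outside RNAs without a poly(A) tail, the 15 rising and 15 falling genes with the largest smaller-of-both-lines difference; 6 such RNAs; the 4 called members with the largest change in each list; and a few fixed genes. Exceptions are stated where they occur. A further gene and list are not reported here. Alternatives covered background, normalization, filter, probe choice, design, the submitters' table and each array left out.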

Additional observations from a re-analysis of the deposited data

Results flagged for a closer look

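Several genes of the shared response differed in size between the lines when the difference itself was tested in limma; each value is the log2 change in TC32 minus that in SKNMC. Among sterol genes the rise was larger in TC32 for HMGCS1 (1.90, adjusted p = 9.30e-05), INSIG1 (2.06, adjusted p = 0.00208), IDI1 (1.58, adjusted p = 0.00249) and MSMO1 (1.51, adjusted p = 0.0106). For ABCA1 and GDF15 the fitted differences were -1.91 and -1.78, but neither gene was detected on any NU7441 array, so both falls are only bounded and the data do not show which line fell more.

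Rises were also larger in TC32 for CDKN1A (1.25, adjusted p = 0.0469) and SQSTM1 (1.03, adjusted p = 0.0388), and larger in SKNMC for TP53INP1 (-1.10, adjusted p = 0.0437) and COL7A1 (-3.06, adjusted p = 0.0024). COL7A1 rose by 0.72 in TC32 and by 3.79 in SKNMC. Falls were larger in TC32 for DIRC3 (-1.98, adjusted p = 0.0024) and COL3A1 (-1.78, adjusted p = 0.0054). Falls were larger in SKNMC for SLC7A1 (1.21, adjusted p = 0.0167), UPP1 (1.66, adjusted p = 0.0112) and TXNIP (2.64, adjusted p = 0.00694). TXNIP fell by 3.84 in SKNMC and by 1.20 in TC32.

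Some probes without a gene symbol in the annotation used here were called too. Of 5313 such detected probes, 98 were called higher and 65 lower on every NU7441 array of both lines. Both shares lay below those over the 12171 genes tested (2.28% higher and 3.55% lower). Groups of 3 arrays are too small for the test of single outlying arrays.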

How the results depend on the processing

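The count of called genes depended on background and scaling more than on single arrays. Against 303 higher and 474 lower (277 and 432 on every array), there were 108 and 935 (92 and 864) without between-array normalization and 111 and 884 (94 and 820) with median scaling, where the share of calls that were higher was 10.4% and 11.2% against 39%. Without background correction there were 96 and 154 (90 and 149), with an offset of 50, 142 and 223 (134 and 211), and in the submitters' table there were 92 and 154 (86 and 149). With detection at p under 0.01 on all arrays, which tests fewer genes (7660), 254 were higher and 263 lower (240 and 249), or 49.1% higher. Without the 3 arrays that stood apart there were 195 higher and 371 lower. Without the fold minimum there were 2292 and 2528 (1294 and 1484), and when each line had to be called on its own 148 and 248. Leaving out each array in turn gave 253 to 346 higher and 425 to 544 lower (236 to 320 and 402 to 483 on every array).

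No called gene named by the rule changed sign under any alternative run; of the genes not called, FLI1 (0.20) stood at -0.0060 with median scaling and -0.021 without any scaling between arrays, and CCND1 (-0.10) at 0.032 with cyclic loess. Of the 104 genes named by the rule, 93 kept their side of the threshold without between-array normalization, 93 with median scaling, 70 without background correction, 69 in the submitters' table and 87 without the 3 arrays. Some list medians changed sign: without between-array normalization sterol sensing was at -0.0020, p53 targets at -0.13, autophagy at -0.089 and heat shock at -0.015; with median scaling p53 targets were at -0.12 and autophagy at -0.074; with the stricter detection filter LXR targets were at 0.15 and interferon-stimulated genes at 0.31; without the 3 arrays end joining was at 0.027; and without each array in turn the p53 targets were at -0.080 to 0.16, below 0 without TC32 NU7441 replicate 1 or 2. The cause of these changes, and of the changes in counts, was not tested.

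With the replicate number within each line as a block, 303 genes were higher and 472 lower, and no call of a named gene changed. Same-numbered arrays correlated at -0.062 to 0.062 in their deviations from the group means. With 3 arrays per group this cannot tell whether equal numbers mark a shared culture or batch.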
